A study of Homo sapiens with 4 samples.

Results

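H/ACA small nucleolar RNAs (snoRNAs) and small Cajal body RNAs (scaRNAs) lie inside longer host genes, and 6 of them were followed through the FSCN1 iRIP-seq peak lists of A549 cells. They were SNORA57 in CSKMT, SNORA49 in EP400, SNORA10 in RPS2, SNORA80B in ODC1, SCARNA16 in SNHG20 and SCARNA22 in NSD2, out of 991 snoRNA and scaRNA genes annotated on the main chromosomes by GENCODE 44. They were selected on the peaks of these same lists, in which 5 of them had a peak, and SCARNA22 with NSD2 was named in the same rule, so that the presence of a peak and its tags are a description and were not tested. The series covered 2 immunoprecipitates (IP) and 2 inputs of A549, an established human lung adenocarcinoma line, with RNA crosslinked to protein by ultraviolet light before FSCN1 was precipitated. FSCN1 (fascin) is known as a protein that bundles actin filaments. Both IP replicates carry the same cell line and treatment label. The sample labels name an antibody against the Flag tag, as does the legend of the paper's western blot of the precipitates. The methods instead name an antibody against FSCN1 itself. The study calls the IP samples biological replicates, without saying how the cultures were kept apart. One input is labelled as an input plasmid, without further detail, and whether the IP cells carried a tagged FSCN1 is not given. The labels also give the molecule as polyA RNA, although mature RNAs of these classes end without a poly(A) tail. The inputs were not analysed here, so that no enrichment over input was computed.

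A snoRNA of the H/ACA class guides the enzyme dyskerin to a base of ribosomal RNA, where uridine is turned into pseudouridine. A scaRNA of the H/ACA class does the same for spliceosomal RNAs in the Cajal body, a nuclear compartment, and carries a short CAB box (here searched as TGAG) in a hairpin loop that keeps it there. Other scaRNAs belong to the C/D class or join both kinds. H/ACA RNAs fold into a pair of hairpins joined by a hinge with the H box (ANANNA), and end in a tail with the ACA box. Most human members sit in introns and are cut out of the spliced intron by trimming enzymes, so that the host transcript and the small RNA come from 1 precursor and then part.

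The sequences below show where on each small RNA the peaks fell, 5' to 3', from GRCh38, with the bases covered by a peak of either strand in capitals. SNORA57 is at chr11:62665422-62665570 on the plus strand, SNORA49 at chr12:132031224-132031359 on the plus strand, SNORA80B at chr2:10446714-10446849 on the minus strand and SCARNA16 at chr17:77089307-77089493 on the plus strand. SNORA10, at chr16:1962334-1962466 on the minus strand, is given by its first 30 bases.
SNORA57: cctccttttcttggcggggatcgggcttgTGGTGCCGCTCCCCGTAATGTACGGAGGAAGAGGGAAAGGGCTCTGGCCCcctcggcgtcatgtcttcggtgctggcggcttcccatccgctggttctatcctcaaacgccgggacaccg
SNORA49: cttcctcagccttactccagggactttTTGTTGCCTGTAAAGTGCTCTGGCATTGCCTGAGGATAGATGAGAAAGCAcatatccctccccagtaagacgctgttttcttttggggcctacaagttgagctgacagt
SNORA80B: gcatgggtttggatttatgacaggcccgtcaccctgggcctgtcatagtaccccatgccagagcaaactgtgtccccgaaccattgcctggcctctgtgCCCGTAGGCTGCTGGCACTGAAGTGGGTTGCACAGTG
SCARNA16: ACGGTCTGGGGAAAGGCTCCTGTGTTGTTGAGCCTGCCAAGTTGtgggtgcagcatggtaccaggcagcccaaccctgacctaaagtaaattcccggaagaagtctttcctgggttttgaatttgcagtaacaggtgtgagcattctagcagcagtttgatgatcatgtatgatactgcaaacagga
SNORA10: GGTCTCTCAGCTCCGCttaaccacacgggt

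SCARNA22 lies at chr4:1974636-1974760 on the plus strand and had no peak. The labels as H/ACA RNAs were checked on the tails. The last 12 bases of each member, with the ACA box in capitals, are shown next.
SNORA57: gccgggACAccg
SNORA49: tgagctgACAgt
SNORA10: agtgcgACAatt
SNORA80B: ggttgcACAgtg
SCARNA16: ctgcaaACAgga
SCARNA22: ttcagtACAaca

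Exactly 3 bases followed the ACA box in 5 of the 6 members, and 2 bases followed it in SNORA49. Among 214 annotated genes named SNORA, 66.4% had ACA at that place, as did 53.1% of 49 annotated scaRNA genes, a class that also holds C/D and mixed RNAs. The share was 31.8% of 415 snoRNA genes with other names and 1.60% of 313 genes named SNORD, which belong to the C/D class. A hinge box of the form ANANNA, searched on the RNA strand and starting between 40% and 60% of the length, was found in 5 of the 6 members and in 83.2% of the SNORA genes, 61.2% of the scaRNA genes, 47.5% of the snoRNA genes with other names and 30.4% of the SNORD genes. SNORA57 was the member without one. SNORA10 had AGAGAA at bases 63 to 68, SNORA80B had AGAGCA at bases 60 to 65 and SCARNA16 had AAAGTA at bases 83 to 88. SNORA49 and SCARNA22 each held 2 such strings next to each other. The letters TGAG occurred in SCARNA16, SCARNA22 and SNORA49, and in 63.3% of scaRNA genes, 42.5% of SNORA genes, 56.4% of snoRNA genes with other names and 84.7% of SNORD genes. These are matches of letters, not mapped boxes. The 6 RNAs were 125 to 187 bases long with a GC content of 48.5% to 63.8%.

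All 6 small RNAs lie on the strand of their host and wholly outside the exons of the host's canonical transcript. They make up little of the hosts, from 0.104% of the 130519 bp of EP400 to 4.78% of the 2784 bp of RPS2. SNORA57 begins 113 bp behind the annotated start of CSKMT, whereas SCARNA22 begins 103243 bp behind that of NSD2. Other annotated transcripts run across some of them. SNORA57 is within an exon of a CSKMT transcript without a defined coding sequence, SCARNA16 within exons of 2 further SNHG20 transcripts, SNORA10 within an untranslated part of 1 RPS2 transcript and SCARNA22 within an untranslated part of 1 NSD2 transcript.

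IP replicate 1 had 5 peaks at 3 of the members, SNORA57, SNORA49 and SNORA80B, and IP replicate 2 had 4 peaks at 2 members, SNORA10 and SCARNA16. No member had a peak in both replicates. Of all 991 annotated snoRNA and scaRNA genes, 0.303% (3 genes) were overlapped by at least 1 bp of a peak in replicate 1, 0.303% (3 genes) in replicate 2, and 0.605% (6 genes) in either. Since the members were chosen from these genes for their peaks, nothing can be read from that share. The lists held 181 and 238 peaks, with tags, the mean number of reads per 50-bp bin, from 7 to 151 in replicate 1 and from 6 to 170 in replicate 2. Tags were not scaled to library size and the lists give no sequencing depth, so levels are compared within a list only. The exact Poisson 95% intervals given below cover counting error only, since reads without molecular identifiers are not independent molecules.

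SCARNA16 had more tags than SNORA10, the other member with a peak in replicate 2. Its peak at chr17:77089301-77089350 in replicate 2 had 35 tags on the strand of the gene (interval 24.4 to 48.7) and 35 on the other strand, which ranked 24th among the 238 peaks. The authors' p-value was listed as 0 on the strand of the gene and was 1.32e-15 on the other. Of the 50 bases, 44 lay in SCARNA16 and covered its first 44 bases, ahead of the hinge, with the TGAG at bases 29 to 32 inside the peak and a second one at bases 138 to 141 outside it. MIR6516, a microRNA gene whose annotated span starts at base 111 of SCARNA16, was not touched by the peak. SCARNA16 is the small RNA nested in SNHG20, a lncRNA (chr17:77086716-77099902), and the span of SEC14L1, a protein-coding gene, also runs across it on the same strand. No peak of replicate 1 lay in SNHG20, where a peak below the lowest tags of the list, 7, would not have been seen.

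SNORA10 had 9 tags on its own strand (interval 4.12 to 17.1) and 8 on the other (interval 3.45 to 15.8) in replicate 2, both at chr16:1962451-1962500. The intervals lay wholly below that of SCARNA16 in the same list, but they cover counting error only and the difference was not tested. The overlap was the smallest of the members, with 16 bases of the peak on the first 16 bases of SNORA10, 30 bases in the intron ahead of it and 4 bases in an exon of the canonical RPS2 transcript (chr16:1962497-1962656). The authors' list places the peak of this strand partly in coding sequence and partly in the 3' untranslated region of RPS2, with no intronic part, so the intron named here is that of the canonical transcript. It was the member just inside the rule, and the nearest outside was SNORA21 in RPL23 on chromosome 17, where a peak of 6 tags in replicate 2 at chr17:38853001-38853050 began 6 bp beyond the snoRNA (chr17:38852863-38852994) without overlap. RPS2 encodes a protein of the small ribosomal subunit and also holds SNORA64 (chr16:1962973-1963106), which had no peak in either list, the closest being the SNORA10 peak 472 bp away.

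SNORA80B, in ODC1, the gene of ornithine decarboxylase in polyamine synthesis, had 10 tags on each strand (interval 4.80 to 18.4) in replicate 1 at chr2:10446701-10446750. The authors' p-values were 4.02e-09 on the strand of the gene and 1.24e-08 on the other. The peak covered bases 100 to 136, that is the end of the RNA with its ACA box, and reached 13 bases past it into the ODC1 intron. It was the only member peak on the tail.

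SNORA57 had 8 tags on each strand (interval 3.45 to 15.8) in replicate 1 at chr11:62665451-62665500, with p-values of 6.67e-07 and 3.17e-07. The peak lay wholly inside the RNA, at bases 30 to 79 of 149. Its host CSKMT encodes a mitochondrial methyltransferase of citrate synthase, and LBHD1 is annotated across the same place on the opposite strand. SNORA49, in EP400, the gene of a chromatin remodelling ATPase, had 7 tags (interval 2.81 to 14.4, p-value 0.00397) in replicate 1 at chr12:132031251-132031300, on its own strand only. The 7 tags equal the lowest in that list. The peak covered bases 28 to 77 of 136, including both hinge strings and the TGAG strings at bases 58 to 61 and 68 to 71. Another TGAG, at bases 125 to 128, lay outside it. The intervals of SNORA80B, SNORA57 and SNORA49 overlapped, and their order in replicate 1 was neither resolved nor tested.

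**Figure D1:**
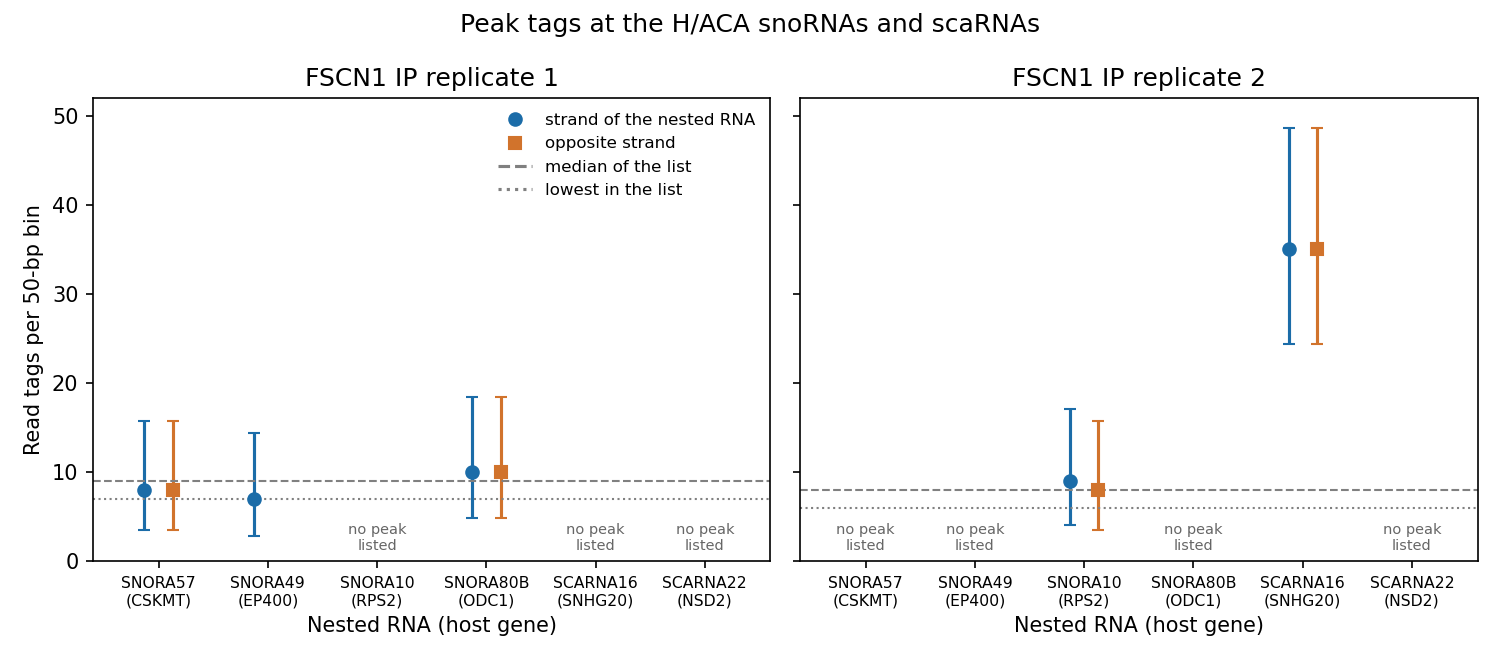
Read tags per 50-bp bin at the 6 small RNAs in each FSCN1 IP replicate, with circles for the strand of the small RNA and squares for the other strand, exact Poisson 95% intervals of counting error as bars, and lines at the median (9 and 8) and lowest tags (7 and 6) of each list. SCARNA16 with 35 tags stands above SNORA10 in replicate 2, and no small RNA has a peak in both panels.

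**Figure D2:**
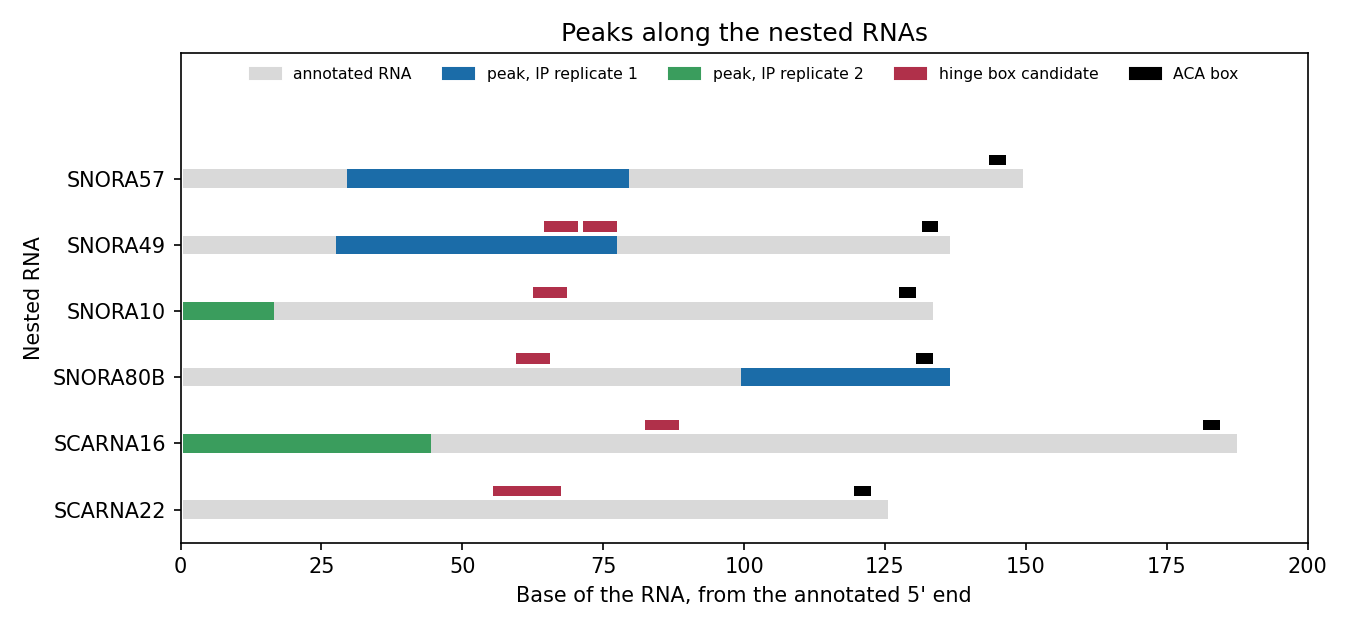
Position of the peaks along each small RNA, counted in bases from its annotated 5' end, with strings that match the hinge box and the ACA box marked above the bars. The peaks of SCARNA16 and SNORA10 lie at the 5' end, those of SNORA57 and SNORA49 in the middle and that of SNORA80B at the 3' end.

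The 5 positions thus fell on different parts of the RNAs, as the map of peaks along the RNAs shows. The peaks of SNORA10 and SCARNA16 were at the 5' end before the hinge, that of SNORA80B at the 3' end behind it, and those of SNORA57 and SNORA49 in the middle. Only 2 of the 5 positions, those of SNORA57 and SNORA49, lay wholly inside the small RNA, and because the bins are 50 bp wide on a fixed grid the edges are known no better than that. In the minimum free energy fold, the share of paired bases under the peak lay close to that of the whole RNA in 4 members, with 62% against 61.7% in SNORA57, 56% against 54.4% in SNORA49, 64.9% against 67.6% in SNORA80B and 65.9% against 65.2% in SCARNA16. In SNORA10 it was 81.3% against 55.6%, over 16 bases only. The GC content of the 9 member peaks ranged from 46% to 64%, with a median of 58%, while the median over all peaks was 66% in each list.

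Both strands were listed at 4 of the 5 positions, SNORA49 being the exception, and at 3 of these 4 the tags were equal on both strands. Over all peaks, 50.8% of replicate 1 and 50.4% of replicate 2 were matched by a peak with the same start and end on the other strand. Neither the labels nor the methods say that strand was used in the counting, so reads of a small RNA, of its host and of a gene on the opposite strand cannot be told apart here. The strand also went with the gene name in the authors' lists. Of the 9 member peaks, 5 were assigned to the host, all 5 on the strand of the small RNA. The 3 peaks assigned to the small RNA, those of SNORA10, SNORA80B and SCARNA16, lay on the opposite strand and were marked as antisense, and the remaining 1 was assigned to LBHD1. The lists class the host peaks of SNORA57 and SCARNA16 as noncoding exon, and those of SNORA49 and SNORA80B as intron. SNORA57 and SNORA49 do not appear by name as a gene of any peak in the lists.

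**Figure D3:**
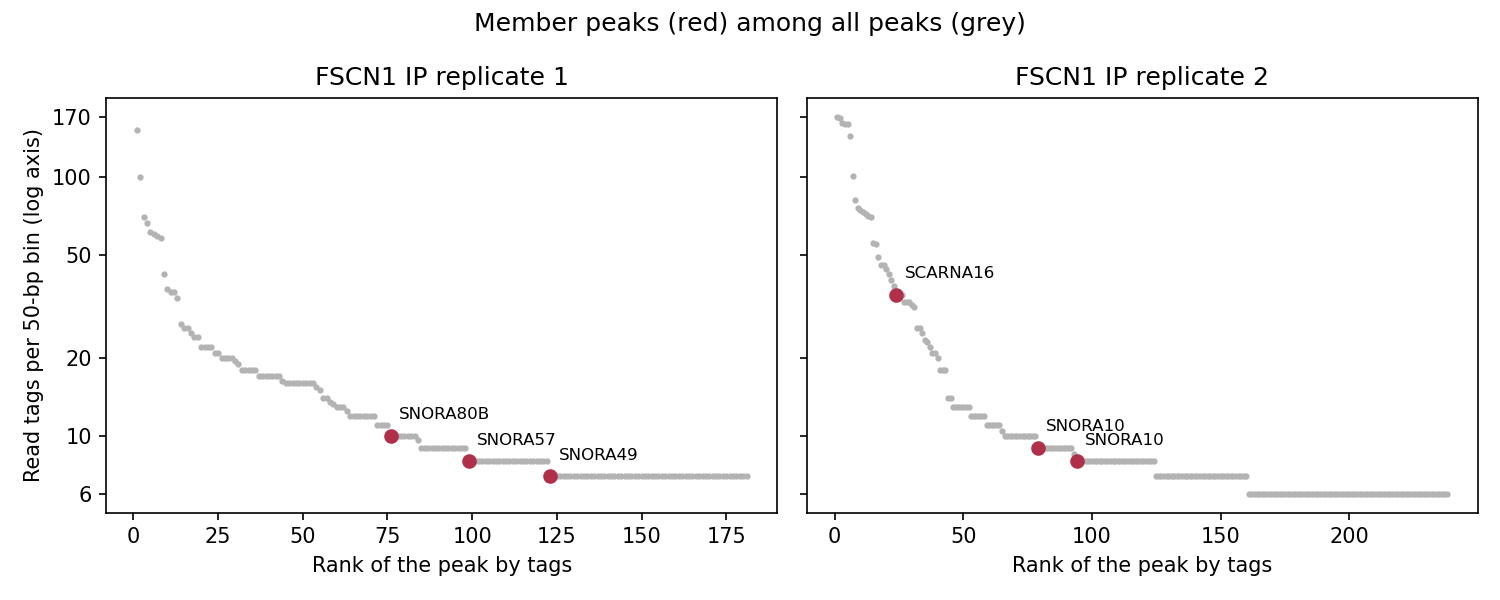
Tags per 50-bp bin on a log axis against the rank of each peak within its list, for IP replicate 1 (181 peaks) and IP replicate 2 (238 peaks). Member peaks are red, with peaks of equal tags at 1 place, and SCARNA16 is at rank 24 in replicate 2 while SNORA49 shares the lowest tags of its list.

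Compared with the whole lists, the members lay in the middle and lower part apart from SCARNA16. The 5 member peaks of replicate 1 had a median of 8 tags against 9 over the list, and 2 of them, both of SNORA80B, were above it. The 4 member peaks of replicate 2 had a median of 22 tags against 8 over the list, and 3 were above it. The plot of tags by rank shows that this difference was carried by the strands of SCARNA16, since SNORA10 had 9 and 8 tags.

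Host transcripts gave no further peaks in most cases. CSKMT, EP400, ODC1, SNHG20 and NSD2 had 0 peaks outside the small RNA in either replicate, so that every tag listed for 4 of them was at the nested RNA, 16 in CSKMT, 7 in EP400, 20 in ODC1 and 70 in SNHG20, summed over strands. NSD2, which encodes a histone methyltransferase, had no peak at SCARNA22 or anywhere in its 110815 bp. The paper names NSD2 and SNHG20 among the RNAs that FSCN1 could bind strongly, and displays peaks of both genes. The peaks that the study displays were not compared with these lists here. RPS2 was the host with peaks elsewhere. In replicate 1 it had 7 tags (interval 2.81 to 14.4) at chr16:1964301-1964350, opposite to an exon and 1834 bp from SNORA10. In replicate 2 it had 6 tags (interval 2.20 to 13.1) at chr16:1964401-1964450 and 6 at chr16:1964501-1964550, both on the strand of the gene, beside the 17 tags at SNORA10. The host thus had peaks in both replicates, none of them at the same place. Summed over the 6 hosts, both lists and both strands, 130 of 149 tags were at the nested RNA (87.2%), where peaks mirrored on both strands enter with each strand. The rule chose the hosts for their nested peaks, which sets this share, and tags below the lowest of a list would not be seen.

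The other snoRNA hosts with a peak in the lists are described next. Of the protein-coding and lncRNA genes of GENCODE 44 counted here, 364 hold a snoRNA or scaRNA on their strand and 13 of these (3.57%) had a peak in either replicate, against 0.267% of all 38898 genes of these types. The first share includes the hosts chosen for their peaks, and SEC14L1 and SNHG20 enter it through the same peaks at SCARNA16. The genes were not matched for expression or length, and the difference between the shares was not tested. SEC14L1 and the hosts above except NSD2 made up 6 of the 13. The other 7, EDA, EEF2, NOP53, RPL13, RPL23, RPL3 and RPL4, held 14 nested RNAs, of which 0 were overlapped, and their 17 peaks with 119 tags lay elsewhere in the gene. Ribosomal protein genes made up 4 of these 7, and EEF2 encodes a translation elongation factor. The distance to the nearest peak was 6 bp for SNORA21 in RPL23, 528 bp for SNORD37 in EEF2 and 649 bp for SNORD43 in RPL3. The groups were made from the peaks themselves, which sets the 0 overlapped RNAs of these 7 hosts, so their difference was not tested.

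**Figure D4:**
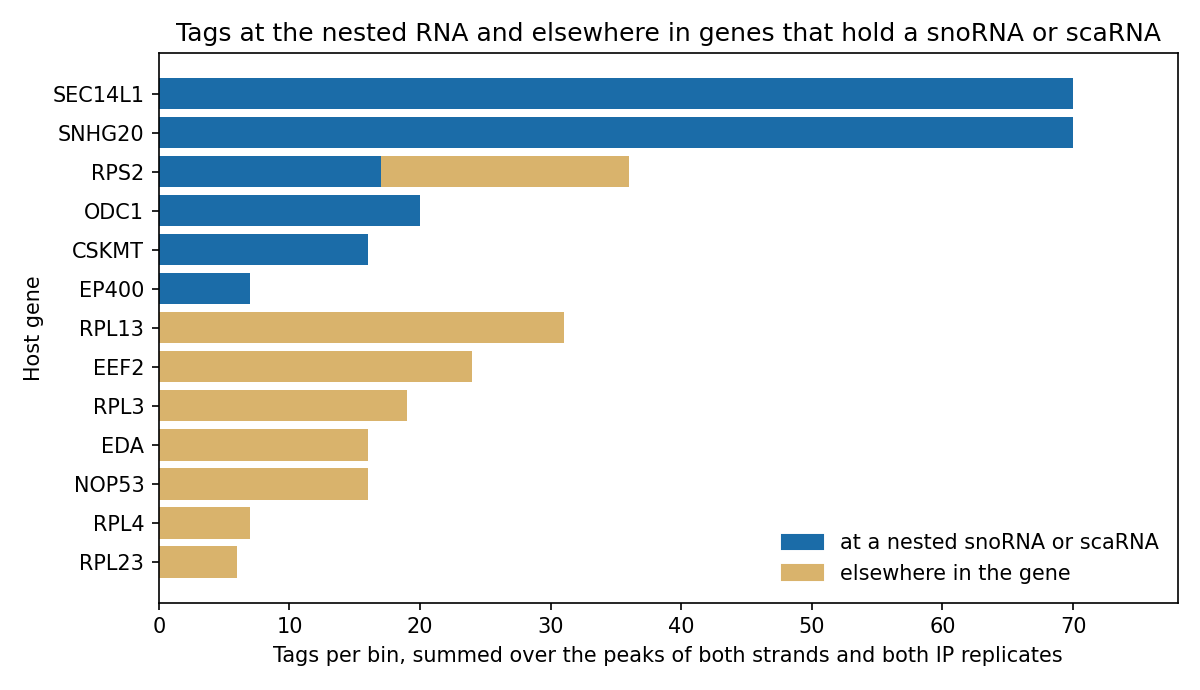
Tags per bin summed over the peaks of both strands and both IP replicates in each of 13 host genes with a peak, split into tags at a nested snoRNA or scaRNA and tags elsewhere in the gene. SNHG20 and SEC14L1 share the 70 tags at SCARNA16, RPS2 has 17 of 36 tags at SNORA10, and the lower 7 genes have none at a nested RNA.

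Reads were kept by the authors only where they aligned to 1 place, which matters for RNAs with copies. SNORA57, SNORA49 and SCARNA22 had 0 similar sequences elsewhere in the genome (alignments of at least 40 bp at 85% identity). SNORA10 had 2, the closest a 133-bp sequence on chromosome 2 at 98.5% identity, SNORA80B had 3, the closest on chromosome 21 at 93.2%, and SCARNA16 had 5, the closest on chromosome 1 at 91.9%. None of these copies had a peak. The tags of SNORA10, SNORA80B and SCARNA16 may therefore leave out reads that matched a copy equally well, and the amount was not tested. The 50-bp bins themselves had 1 such copy for SNORA10, 3 for SNORA80B and 4 for SCARNA16.

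By class, 4 of 214 SNORA genes had a peak in either replicate, all of them members, as did 1 of 49 scaRNA genes, SCARNA16. Of 313 SNORD genes, which guide 2'-O-methylation, 1 had a peak, and so did 0 of the 415 snoRNA genes with other names. The SNORD gene was SNORD3B-2, a gene of U3, which takes part in the cutting of ribosomal RNA precursors rather than in modification. Its peak at chr17:19063901-19063950 in replicate 2 had 21 tags (interval 13.0 to 32.1) and lay on the strand opposite to the gene, starting at base 187 of a span of 791 bp.

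For the proteins and RNAs that work with the members, the share of all protein-coding and lncRNA genes with a peak (0.267%) is so low that no peak is the usual case in a short gene list, and nothing can be read from its absence. No peak in either list lay in the 12 genes of the H/ACA particle and the Cajal body, DKC1, NOP10, NHP2, GAR1, NAF1, SHQ1, TERC, WRAP53, COIL, RUVBL1, RUVBL2 and NOLC1, where DKC1 encodes dyskerin, WRAP53 the protein that binds the CAB box, COIL the Cajal body protein coilin and TERC the telomerase RNA, which has an H/ACA domain. The 4 genes of the C/D particle, FBL, NOP56, NOP58 and SNU13, had none either. Among 13 polyadenylated non-coding snoRNA hosts, such as GAS5, SNHG1 and DANCR, SNHG20 was the single gene with a peak, in replicate 2, and it is one of the hosts chosen for that peak.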

How the data were processed

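The iRIP-seq data were 2 peak lists of FSCN1 IP replicates in A549 cells. According to the methods and the submitters' processing notes, the authors mapped the reads to GRCh38 (HISAT2), used those with a single alignment after removal of PCR duplicates, and ran ABLIRC and Piranha for peaks. The methods describe the inputs as the background for peak calling and a screen of peaks on their abundance in IP over input. Which caller and which of these steps made the lists, and the versions of the tools, are not given in the sources used here. For the binding regions the methods name annotation version 38 (Ensembl 104), whereas the overlaps here used GENCODE 44. The deposited signal, called tags, is the mean number of reads per 50-bp bin, not scaled to library size, and the p-value of each peak is as deposited by the authors. Depth is unknown from the lists.

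The members and lists were chosen with earlier results of these data known. Peaks, read 1-based, were intersected with GENCODE 44 (0 peaks ran past a chromosome end of the hg38 sequence) counting 1 shared bp on either strand as overlap. The host's exons were those of its Ensembl canonical transcript. Named were the 6 RNAs and hosts, every other snoRNA or scaRNA gene with a peak, and the genes of 3 fixed lists. Genes near or beside these, and hosts found in the annotation, were named after their values were seen, and 1 host gene outside the 6 is not reported here and was left out of the host counts. With 1 condition no groups were compared and no test was run. Alternatives were an overlap of 50% of the peak, the strand of the RNA, peaks above the list median, spans extended by 50 bp, tags summed over bins and each replicate left out. The overlap and box searches were tested on simulated data. Folds came from RNAfold 2.7.2 and similar sequences from blastn 2.17.0, with Python 3.11.15, pysam 0.24.0, scipy 1.17.1 and matplotlib 3.10.9.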

Additional observations from a re-analysis of the deposited data

How the results depend on the processing

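Of 35 alternative values, 22 stayed within the limits set for them and 13 moved. Requiring 50% of the peak inside the nested RNA removed SNORA10, which left 1 nested RNA and 2 peaks in replicate 2 and a host share of 75.8%. Counting only the strand of the RNA left 3 peaks in replicate 1 and 2 in replicate 2. When peaks at or below their list's median tags were dropped, 1 nested RNA and 2 peaks remained in replicate 1, 3 nested RNAs in either replicate, and the host share was 100%. Without each replicate in turn, the nested RNAs with a peak in either numbered 2 to 3 and the annotated snoRNA and scaRNA genes 3 in both cases. With spans extended by 50 bp the annotated genes with a peak numbered 7 in place of 6, since SNORA21 was added, and the other values did not change. Summing tags over bins could not move the host share, because every peak in it is a single bin. No paired analysis was possible because the inputs were not analysed here and 1 group remained. The lists hold only peaks above a minimum, so that a member without a peak may carry fewer reads than the lowest listed.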
